A study of Bos grunniens and Bos grunniens x Bos taurus with 2 samples.

Results

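The *PDGFRA*+ *ACTA2*+ cells of yak and cattle-yak testes are cells that carried transcripts of the receptor gene *PDGFRA*, which mesenchymal stromal cells express, together with *ACTA2*, which encodes the smooth muscle actin of contractile cells. They were selected on their raw counts of unique molecular identifiers (UMIs, 1 for each captured transcript molecule). A cell belonged to the group with at least 2 UMIs of *PDGFRA*, at least 6 of *ACTA2* and at least 1 over *DES*, *CNN1*, *LMOD1* and *MYOCD*, at a mitochondrial share under 30%. A total of 412 of 11114 yak cells under that limit met these conditions (3.71%, exact binomial interval 3.36 to 4.08%). In the cattle-yak, 167 of 7620 cells did (2.19%, 1.87 to 2.55%). Every interval in the text is a 95% interval for counting error and leaves out the spread between animals. The cells are called by the genes that chose them, because only 2 genes of the peritubular myoid list stood 2-fold above stromal cells in either library.

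Testicular tissue of a sexually mature yak (*Bos grunniens*) and sexually mature cattle-yak tissue, from the hybrid of yak and cattle with the number of animals not given in the sources used here, had each been frozen, thawed, digested with enzymes and captured in droplets as 1 library. In all, 60816600 UMIs in 11991 cells came from the yak, and 43774841 UMIs in 8930 cells from the cattle-yak. The labels name germ cells as the cell line of both libraries. A list of 6 germ cell genes, led by *UCHL1*, was summed over the *PDGFRA*+ *ACTA2*+ cells. It stood at 105 counts for every 1000000 UMIs (CPM) in the yak and at 199 CPM in the cattle-yak. Of this list, *TNP1* and *ACRV1*, genes of spermatids, stood at 3.19 and 6.77 CPM in the yak and at 0 in the cattle-yak. With 1 library for each animal type no test between groups could be made, no p-value is given, and the libraries are described apart. A total of 24 cell barcodes occurred in both libraries, 4 of them on *PDGFRA*+ *ACTA2*+ cells of the yak and 1 on such a cell of the cattle-yak, and no barcode met the conditions in both.

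Peritubular myoid cells (MCs) are flat contractile cells in the wall of the seminiferous tubule. They move sperm and fluid, build the basement membrane together with Sertoli cells, and supply factors to spermatogonial stem cells. Leydig cells (LCs) lie in the interstitium between the tubules and make testosterone from cholesterol, which STAR carries into mitochondria and CYP11A1 cleaves in the first step of steroid synthesis. Both types respond to desert hedgehog from Sertoli cells through the receptor PTCH1, and both are known to derive from *PDGFRA*-expressing mesenchyme. The question was whether the *PDGFRA*+ *ACTA2*+ cells carried the genes of MCs, of LCs or of a mix.

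A pair of further groups served for comparison, each within its library. Stromal cells had at least 2 UMIs of *PDGFRA*, at most 2 of *ACTA2* and none of the other 4 genes. Muscle cells without *PDGFRA* met the *ACTA2* and contractile conditions but had no UMI of *PDGFRA* and none of *KCNJ8* or *ABCC9*, which mark pericytes. There were 197 stromal and 811 muscle cells in the yak, and 529 and 851 in the cattle-yak. The median depth was 4963 UMIs in the yak *PDGFRA*+ *ACTA2*+ cells, 4058 in stromal and 6074 in muscle cells, and 4821, 2899 and 5213 UMIs in the cattle-yak. Levels are UMIs summed over the cells of a group and scaled to CPM. The log2 ratio of a gene between groups was taken after 1 CPM had been added to each side, and a gene counted as above or below with at least 2-fold.

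The genes of the rule gave the following levels, which describe the choice and support nothing. *PDGFRA* stood at 1278 CPM in the yak *PDGFRA*+ *ACTA2*+ cells and 825 CPM in stromal cells, and at 795 and 858 CPM in the cattle-yak. *ACTA2* stood at 2672, 77.3 and 3573 CPM in *PDGFRA*+ *ACTA2*+ cells, stromal and muscle cells of the yak and at 2797, 73.2 and 5533 CPM in the cattle-yak. A yak cell held 2 to 38 UMIs of *PDGFRA* with a median of 7. Just inside the limit, 36 yak cells with exactly 2 UMIs of *PDGFRA* had the keratin gene *KRT18* at 709 CPM, and just outside it 49 cells with exactly 1 UMI had 116 CPM. In the cattle-yak the 45 cells inside had 1413 CPM and the 55 outside 536 CPM. At the *ACTA2* limit, *KRT18* stood at 688 CPM in 53 yak cells with 6 or 7 UMIs and at 394 CPM in 55 cells with 4 or 5, and at 2134 CPM in 33 and 649 CPM in 28 cattle-yak cells. At the contractile limit, it stood at 772 CPM in the 40 yak cells with exactly 1 UMI and at 510 CPM in the 17 with none, against 787 CPM in 24 and 734 CPM in 15 cattle-yak cells.

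The contractile genes stood far above stromal cells, and in sum below muscle cells. *MYH11*, the myosin heavy chain of smooth muscle, stood at 5346, 192 and 5515 CPM in *PDGFRA*+ *ACTA2*+ cells, stromal and muscle cells of the yak, and at 4323, 88.6 and 5751 CPM in the cattle-yak. *TPM2*, a tropomyosin, stood at 4749, 234 and 5165 CPM and at 4408, 152 and 7103 CPM, and *TAGLN*, an actin-binding protein of smooth muscle, at 5277, 1058 and 8637 CPM and at 4913, 481 and 10623 CPM. Summed over all *PDGFRA*+ *ACTA2*+ cells, these 3 genes lay below the muscle level and at least 4-fold above the stromal one, and *TAGLN* in the cattle-yak was more than 2-fold below muscle. The order to muscle turned in the yak when cells of high doublet score or with RNA of other types were left out of the *PDGFRA*+ *ACTA2*+ cells alone. The log2 ratio went from -0.045 to 0.23 for *MYH11* and from -0.12 to 0.13 for *TPM2*. The muscle cells were kept whole for this, and 26.4% of those in the yak held RNA of other types. Of 18 contractile genes outside the rule, 17 in the yak and 16 in the cattle-yak were at least 2-fold above stromal cells. The background share over all genes tested was 6.48% of 9404 and 7.27% of 7844 genes. *FHL1* in both libraries and *SYNPO2* in the cattle-yak, at log2 ratios of 0.01, 0.32 and 0.98, were the exceptions. None of the 18 was above muscle cells (8.48% and 9.19% of all genes were), and 3 in the yak and 4 in the cattle-yak were below them, against 15.5% and 8.21% of all genes. *LDB3*, a protein of the Z-disc, differed most, with 3.58 CPM against 68.3 CPM in yak muscle cells and 16.7 against 90.5 CPM in the cattle-yak. Summed over the list, *PDGFRA*+ *ACTA2*+ cells had a log2 ratio of 2.83 (2.77 to 2.89) to stromal and of -0.28 (-0.29 to -0.26) to muscle cells in the yak. In the cattle-yak these were 3.25 (3.20 to 3.31) and -0.69 (-0.71 to -0.67). The sum differed between the clusters described further on. In the yak it stood at 26574 CPM in cluster 1 and 33926 CPM in cluster 4, above the 24721 CPM of muscle cells. Clusters 2, 3 and 5 had 15264, 9598 and 15328 CPM. Every cluster of the cattle-yak lay below muscle cells, with at most 19897 against 29878 CPM. The median log2 ratio of all genes tested was -0.05 to stromal and -0.05 to muscle cells in the yak, and 0.09 and 0.07 in the cattle-yak. Because *ACTA2* was part of the rule, the contractile list is not independent of it.

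**Figure D1:**
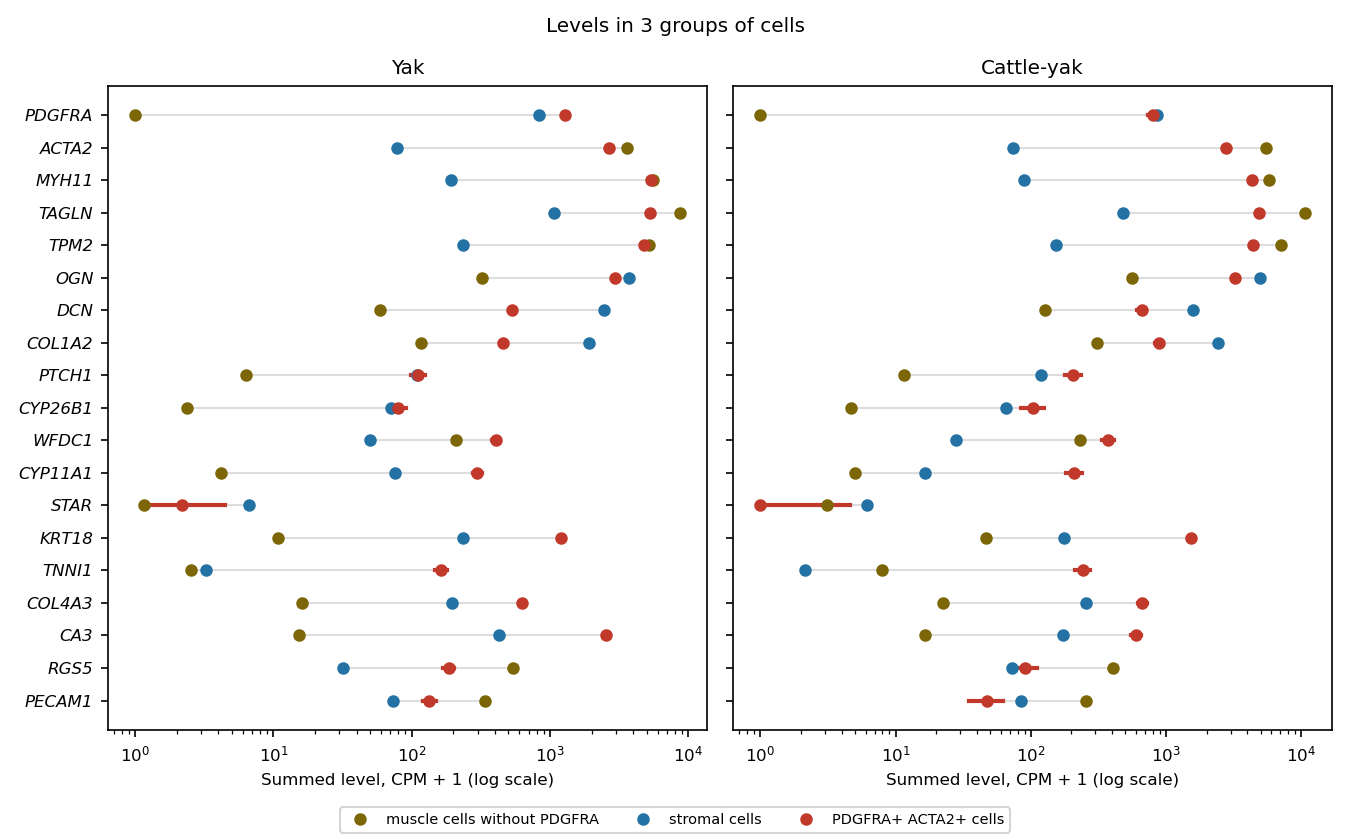
Levels (CPM + 1, log axis) of 19 genes summed over the *PDGFRA*+ *ACTA2*+ cells (red), stromal cells (blue) and muscle cells without *PDGFRA* (brown) of each library, with the 95% counting interval drawn for the *PDGFRA*+ *ACTA2*+ cells. The contractile genes *MYH11*, *TAGLN* and *TPM2* lie far above the stromal level, with *TAGLN* of the cattle-yak more than 2-fold below muscle, *OGN* near the stromal level, and *KRT18*, *TNNI1*, *COL4A3* and *CA3* above both groups, while *STAR* is near the lower end of the axis.

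The same cells held the matrix and secreted genes of stroma, at lower levels than stromal cells. *OGN*, a small proteoglycan of connective tissue, stood at 2937, 3738 and 322 CPM in *PDGFRA*+ *ACTA2*+ cells, stromal and muscle cells of the yak and at 3225, 4969 and 556 CPM in the cattle-yak. *DCN*, which encodes decorin, stood at 530.0, 2442 and 58 CPM and at 661, 1576 and 126 CPM. *COL1A2*, a chain of type I collagen, stood at 457, 1921 and 116 CPM and at 889.8, 2442 and 308 CPM, so that both *DCN* and *COL1A2* lay between the groups in each library. Of the interstitial stroma list, 12 of 13 genes tested in the yak and 11 of 12 in the cattle-yak were above muscle cells, beside 8.48% and 9.19% of all genes. None was above stromal cells, and 8 and 5 were below them, against 8.90% and 5.20% of all genes. *APOD*, an apolipoprotein, and *FBLN1*, an elastic fibre protein, stood at 1077 and 543 CPM in the yak *PDGFRA*+ *ACTA2*+ cells and 58 and 14.7 CPM in muscle cells. *PI16*, a gene of adventitial fibroblasts, stood at 7.17 CPM against 52.3 CPM in stromal cells of the yak and at 5.89 against 16.6 CPM in the cattle-yak. Because *PDGFRA* was part of the rule, this list is not independent of it either.

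Cell by cell, both programmes occurred together. The contractile list took a median of 2.14% of the UMIs of a yak *PDGFRA*+ *ACTA2*+ cell (lowest 0.269%, highest 5.31%), 0.272% in stromal and 3.03% in muscle cells. The medians in the cattle-yak were 1.71%, 0.177% and 3.02%. The stroma list took 1.05% (lowest 0.0909%, highest 2.78%), 2.06% and 0.263% in the yak and 0.969%, 1.80% and 0.253% in the cattle-yak. The 5th to 95th percentiles of the stroma share ran from 0.466 to 1.87% in the yak *PDGFRA*+ *ACTA2*+ cells and from 0.0789 to 0.860% in muscle cells, so the groups overlapped at their edges. With every cell thinned to 2000 UMIs, 97.3% of the yak *PDGFRA*+ *ACTA2*+ cells had a UMI of *MYH11* and 94.7% one of *OGN*. In the cattle-yak these shares were 95.8% and 94%. Lymphocytes, which should lack these genes and served as the background of free RNA, had 24.4% and 9.91% in the yak and 11.6% and 22.1% in the cattle-yak, at median depths of 2282 and 2607 UMIs.

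**Figure D2:**
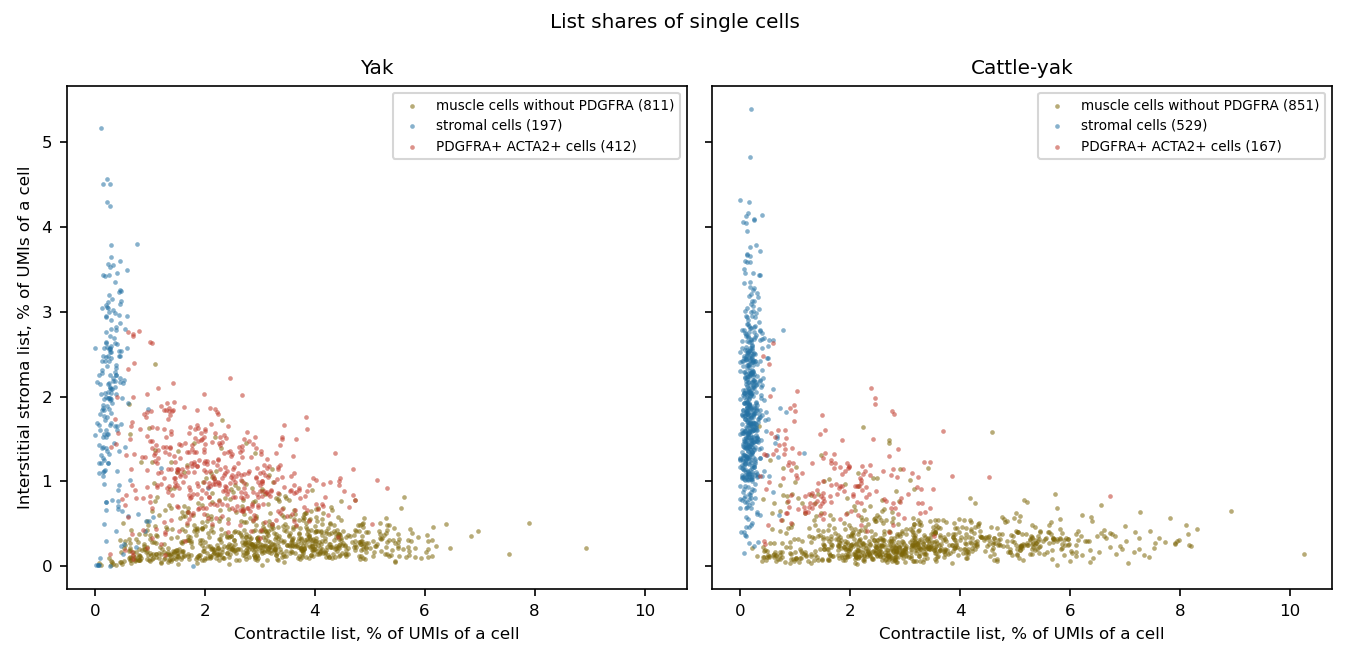
Share of the UMIs of a cell on the contractile list (x axis, %) and on the interstitial stroma list (y axis, %), with 1 point for each of the *PDGFRA*+ *ACTA2*+ cells (red), stromal cells (blue) and muscle cells without *PDGFRA* (brown). Stromal cells lie along the y axis and muscle cells along the x axis, and the *PDGFRA*+ *ACTA2*+ cells lie between them with medians of 2.14% and 1.05% in the yak and 1.71% and 0.969% in the cattle-yak.

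Of the LC genes, *CYP11A1* stood above both comparison groups in these cells and *STAR* did not. A cell held a median of 1 UMI of *CYP11A1* and at most 13 in the yak, and a median of 0 and at most 9 in the cattle-yak. *CYP11A1* stood at 297 CPM (interval 276 to 319) in the yak *PDGFRA*+ *ACTA2*+ cells, 75.1 CPM in stromal and 3.18 CPM in muscle cells. In the cattle-yak it stood at 207 CPM (180.0 to 237), 15.4 and 4.04 CPM. The log2 ratio to stromal cells was 1.97 (1.62 to 2.37) in the yak and 3.66 (3.16 to 4.38) in the cattle-yak. With all cells thinned to 2000 UMIs the ratios were 1.90 and 3.95. *STAR* had 3 UMIs over the 412 yak cells (1.19 CPM) and none over the 167 cattle-yak cells, in which 3 UMIs would have been 2.94 CPM. *NR5A1*, the steroidogenic regulator, had 6 and 2 UMIs, and *INHA*, the inhibin alpha subunit, stood at 5.18 and 16.7 CPM, with 11.4 and 12 CPM in stromal cells. No feature of the annotation carried the symbols *CYP17A1*, *HSD3B1*, *HSD3B2*, *HSD17B3*, *INSL3* or *LHCGR*, so 6 of the 10 LC genes were not analysed here.

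Much of the *CYP11A1* of each library lay in the *PDGFRA*+ *ACTA2*+ cells. They held 746 of the 1292 *CYP11A1* UMIs in yak cells under the mitochondrial limit (57.7%), with 4.26% of all UMIs, and 211 of 438 in the cattle-yak (48.2%), with 2.68% of all UMIs. Of the cells with at least 3 UMIs of the gene, 110 of 164 in the yak and 31 of 51 in the cattle-yak were *PDGFRA*+ *ACTA2*+ cells. In contrast, none of the 8 yak and 13 cattle-yak cells with at least 3 UMIs of *STAR* belonged to them, and a yak cell reached 17 UMIs of *STAR*. At 2000 UMIs a cell, 41% of the yak *PDGFRA*+ *ACTA2*+ cells had a UMI of *CYP11A1* (36.2 to 45.9%), against 12.4% of stromal cells, 1.13% of muscle cells and 0.100% of lymphocytes. In the cattle-yak the shares were 28.3% (21.6 to 35.8%), 2.02%, 0.712% and 0.362%. Without thinning, 66.0% and 47.3% of the *PDGFRA*+ *ACTA2*+ cells had a UMI. Thinning left out 28 and 84 stromal, 18 and 8 muscle cells, 558 and 72 lymphocytes, and none of the yak and 1 of the cattle-yak *PDGFRA*+ *ACTA2*+ cells.

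Nearly all cells with *CYP11A1* also had *MYH11*. Of the 169 thinned yak cells with a UMI of *CYP11A1*, 168 also had 1 of *MYH11*, as did all 47 of the cattle-yak, and of the cells without *CYP11A1* 95.9% and 94.1% had it too. *KRT18* was found in 79.3% of the yak cells with *CYP11A1* and 69.5% of those without, and in 87.2% and 68.1% in the cattle-yak. Split on the full counts, the *PDGFRA*+ *ACTA2*+ cells with at least 1 UMI of *CYP11A1* had *MYH11* at 6012 CPM and those with none 4093 CPM in the yak, and 4636 and 4038 CPM in the cattle-yak. *TAGLN* stood at 5694 against 4493 CPM in the yak but at 4601 against 5198 CPM in the cattle-yak. There the rule genes *ACTA2*, *DES*, *CNN1* and *LMOD1* were also lower in the cells with *CYP11A1*, with overlapping intervals for all but *ACTA2*. *RGS5*, a gene of mural cells, was lower with *CYP11A1* in both, at 127 against 293 CPM and 39 against 135 CPM. The endothelial gene *PECAM1* was lower as well, at 94.5 against 204 CPM and 30.8 against 60.1 CPM, and so was the leukocyte gene *PTPRC*, at 17.1 against 36.7 CPM and 16.4 against 26.3 CPM. In the cattle-yak *PECAM1* rested on 15 and 32 UMIs and *PTPRC* on 8 and 14, and the intervals overlapped for both genes. The part of cells with RNA of other types in these differences was not tested.

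**Figure D3:**
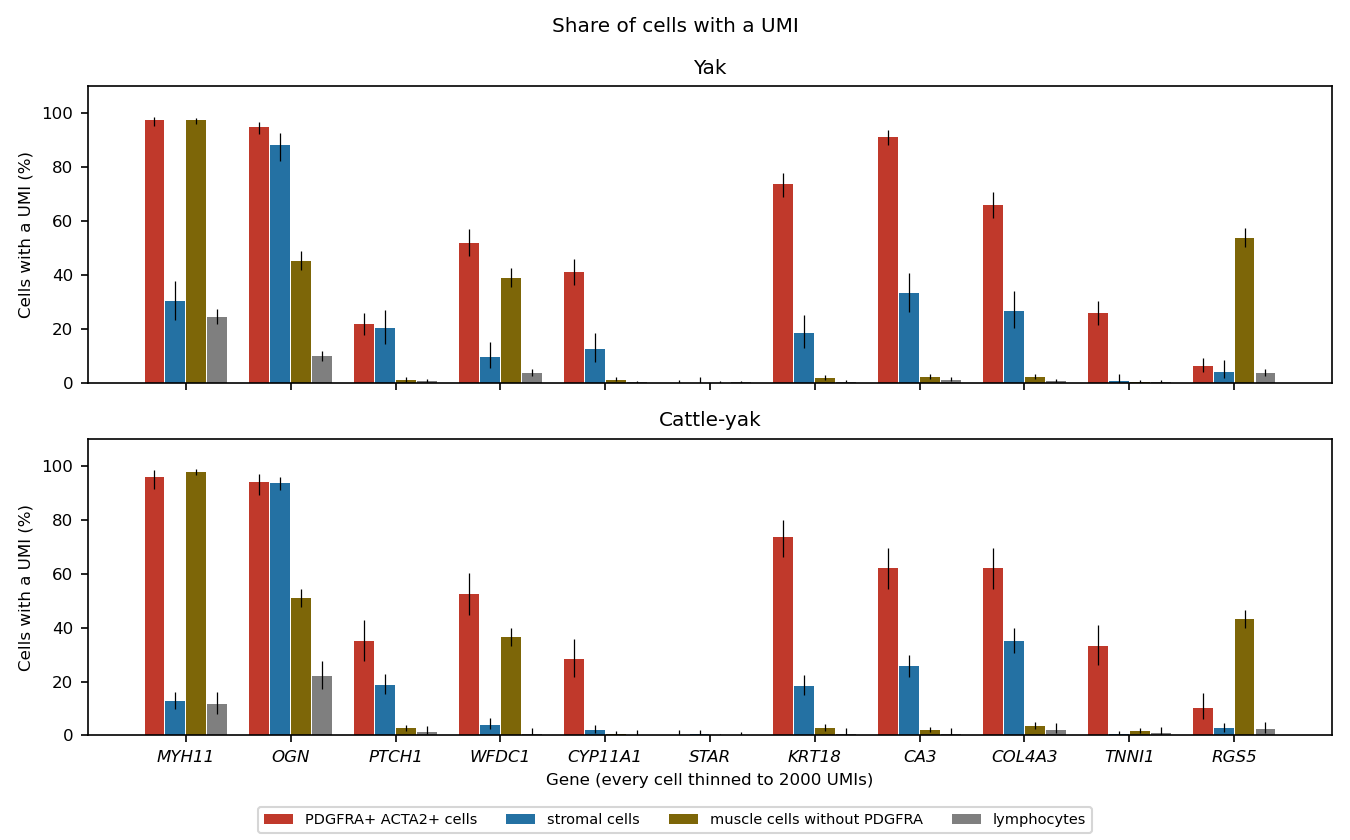
Share of cells (%) with at least 1 UMI of 11 genes after every cell was thinned to 2000 UMIs, for *PDGFRA*+ *ACTA2*+ cells (red), stromal cells (blue), muscle cells without *PDGFRA* (brown) and lymphocytes (grey), with exact binomial 95% intervals as bars. *CYP11A1* reached 41.0% and 28.3% and *KRT18* 73.5% and 73.5% of the *PDGFRA*+ *ACTA2*+ cells in the yak and cattle-yak, while *STAR* was found in none of them.

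Of the genes that supply cholesterol and electrons to steroid synthesis, *FDX1*, the ferredoxin that serves CYP11A1, stood at 10.4, 14.8 and 11.2 CPM in *PDGFRA*+ *ACTA2*+ cells, stromal and muscle cells of the yak and at 8.83, 9.72 and 10.2 CPM in the cattle-yak. *SCARB1*, a receptor for lipoproteins, stood at 35.8, 26.2 and 34.1 CPM and at 22.6, 31.4 and 28.8 CPM. In neither library did these levels differ by 2-fold. Of the supply list, none of 11 genes tested in the yak and 2 of 9 in the cattle-yak were above stromal cells, beside 6.48% and 7.27% of all genes, which for so few genes says little of the list. Among them was *NR4A1*, which is also a gene of the dissociation response, at 125 against 46.9 CPM. *NR0B1*, which encodes the repressor DAX1, was the only gene of the list above muscle cells in either library, at 15.1, 30.7 and 1.06 CPM and at 13.7, 25.1 and 1.35 CPM. The list of LC progenitor genes was divided, with 2 of 7 genes above and 1 below stromal cells in the yak and 3 above and 1 below in the cattle-yak, beside 6.48% and 7.27% of all genes above and 8.90% and 5.20% below. To muscle cells, 2 were above and 3 below in the yak and 2 above and 4 below in the cattle-yak, beside 8.48% and 9.19% of all genes above and 15.5% and 8.21% below. *IGF1*, a growth factor of stroma, stood at 272, 296 and 4.85 CPM and at 173, 434 and 13.6 CPM, and *NR2F2*, a regulator of interstitial mesenchyme, at 396, 379.9 and 213 CPM and at 339, 252 and 213 CPM.

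Genes of hedgehog response stood above muscle cells and not above stromal cells, and genes of MCs were divided. *PTCH1*, the receptor and a target of hedgehog signals, stood at 109.9, 108 and 5.30 CPM in *PDGFRA*+ *ACTA2*+ cells, stromal and muscle cells of the yak and at 205, 118 and 10.6 CPM in the cattle-yak. The log2 ratio to stromal cells was 0.02 and 0.79, and that to muscle cells 4.14 and 4.15. Thus *PTCH1*, a marker given for these cells, did not set all of them apart from stromal cells by 2-fold in either library. Without the cells of high doublet score or with RNA of other types, the log2 ratio of *PTCH1* was 0.30 in the yak and 1.07, over 2-fold, in the cattle-yak. The stromal cells were kept whole for this. Of the hedgehog list, 6 of 7 genes tested in the yak and 6 of 8 in the cattle-yak were above muscle cells, beside 8.48% and 9.19% of all genes. None was above stromal cells, beside 6.48% and 7.27% of all genes. *GLI1*, a transcription factor of the pathway, stood at 18.7 and 24.5 CPM and *HHIP*, which binds hedgehog ligands, at 12.7 and 24.5 CPM in the *PDGFRA*+ *ACTA2*+ cells. *GAS1* and *CDON*, which act as co-receptors, and the transcription factor gene *GLI3* were the 3 below stromal cells in both libraries, beside 8.90% and 5.20% of all genes, with *GAS1* and *CDON* at log2 ratios of -2.01 and -2.15 in the yak and -2.47 and -2.08 in the cattle-yak. Among the ligands, *DHH* had 1 UMI in the yak *PDGFRA*+ *ACTA2*+ cells and none in the cattle-yak, and *SHH* and *IHH* had none in either.

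*WFDC1*, a secreted protease inhibitor gene of contractile cells, differed from *PTCH1*. It stood at 403, 48.9 and 209 CPM and at 371, 26.9 and 230.1 CPM, with log2 ratios of 3.02 and 3.74 to stromal and of 0.94 and 0.69 to muscle cells. Without the cells of high doublet score or with RNA of other types, the ratio to muscle cells was 1.13 in the yak, over 2-fold, and 0.81 in the cattle-yak. The muscle cells were kept whole for this. *ESR2*, *PGR* and *FSHR* had no UMI in the *PDGFRA*+ *ACTA2*+ cells of either library. *CYP26B1*, which degrades retinoic acid and is a gene of MCs, stood at 78.5, 69.4 and 1.36 CPM and at 102, 64.6 and 3.65 CPM. *ALDH1A2*, which makes retinoic acid, stood at 121, 111 and 41.5 CPM and at 69.7, 63.4 and 12.3 CPM. The retinol carrier *RBP4* was low beside stromal cells, at 182 against 1207 CPM and 135 against 771 CPM. Over the whole list of MC genes, 7 of 12 tested in the yak and 5 of 11 in the cattle-yak were above muscle cells, beside 8.48% and 9.19% of all genes, but only *WFDC1* and *GDNF* were above stromal cells, in both libraries, beside 6.48% and 7.27% of all genes. The summed list had log2 ratios of -1.19 to stromal and 0.72 to muscle cells in the yak and of -0.42 and 0.68 in the cattle-yak. *IGFBP6* was the most abundant gene of the list in both libraries. The median log2 ratio of the genes tested was -0.22 to stromal and 2.55 to muscle cells in the yak, and -0.07 and 0.84 in the cattle-yak. *GDNF*, the growth factor of spermatogonial stem cells, rested on 17 and 6 UMIs in the *PDGFRA*+ *ACTA2*+ cells and on 2 and 3 in stromal cells.

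A set of genes stood at least 2-fold above both comparison groups. A gene could pass the filter on summed counts through the *PDGFRA*+ *ACTA2*+ cells alone, so the set describes these cells and supports nothing. There were 115 such genes in the yak (1.22% of those tested) and 102 in the cattle-yak (1.30%). Among the 7726 genes tested in both libraries the counts were 71 and 94, and 30 were shared, which is 42.3% of the yak and 31.9% of the cattle-yak genes. The leading gene in both was *TNNI1*, the troponin I of slow skeletal muscle, at 162, 2.27 and 1.51 CPM in *PDGFRA*+ *ACTA2*+ cells, stromal and muscle cells of the yak and at 240.4, 1.14 and 6.92 CPM in the cattle-yak. In the yak these levels rested on 406, 2 and 10 UMIs, and in the cattle-yak on 245, 2 and 36. *TNNI3*, the troponin I of heart muscle, stood at 75.7, 3.41 and 6.51 CPM and at 119.7, 17.1 and 7.88 CPM. Of the *TNNI3* UMIs in cells under the mitochondrial limit, the *PDGFRA*+ *ACTA2*+ cells held only 22.2% in the yak and 8.97% in the cattle-yak. For *TNNI1* these shares were 75.2% and 62.3%. *KRT18*, a keratin of simple epithelia, stood at 1197 CPM (1155 to 1241), 234 and 9.85 CPM in the yak and at 1522 CPM (1447 to 1599), 176 and 45.9 CPM in the cattle-yak. The other epithelial genes *EPCAM* and *CDH1* stood at 7.57 and 0 CPM in the yak *PDGFRA*+ *ACTA2*+ cells and 7.85 and 0 CPM in the cattle-yak.

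The other leading genes came from several families. *CA3*, a carbonic anhydrase of muscle and fat, stood at 2539.9, 429 and 14.4 CPM and at 598, 172 and 15.4 CPM. *COL4A3*, a chain of type IV collagen, stood at 621, 193 and 15 CPM and at 667, 255 and 21.3 CPM. *EML4*, a microtubule-binding protein, stood at 315, 67.1 and 54.8 CPM and at 291, 74.9 and 54 CPM, but lymphocytes also had 134 and 129 CPM. *TGM2*, a transglutaminase that crosslinks proteins, stood at 177, 34.1 and 18.9 CPM and at 66.7, 23.4 and 15.4 CPM. *PDE6B*, a phosphodiesterase known from photoreceptors, stood at 59.7, 15.9 and 2.27 CPM and at 119, 8.57 and 3.65 CPM. *ETV1*, an ETS transcription factor, stood at 64.5, 6.82 and 22.9 CPM and at 106, 4.57 and 21.9 CPM, and *SLC18A2*, a vesicular monoamine transporter, at 189, 77.3 and 4.09 CPM and at 288, 45.7 and 7.88 CPM. All of these passed 2-fold over both groups in both libraries, which describes cells chosen with the same counts and is no test. *DPEP1*, a dipeptidase, and *ECE1*, the endothelin-converting enzyme, were among the leading 12 genes in the cattle-yak, at 563, 125 and 11.9 CPM and at 693, 221 and 164 CPM. In the yak *DPEP1* stood at 271, 208 and 3.18 CPM and *ECE1* at 425, 229 and 161 CPM.

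In the yak, 2 of the leading 12 genes had most of their UMIs in few cells. The unnamed features ENSBGRG00000020609 and ENSBGRG00000008342 stood at 1219 and 921 CPM, but 96.7% and 95.9% of their UMIs lay in the 10 cells that held most. For *TNNI1* and *KRT18* that share was 16.5% and 18.0%.

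**Figure D4:**
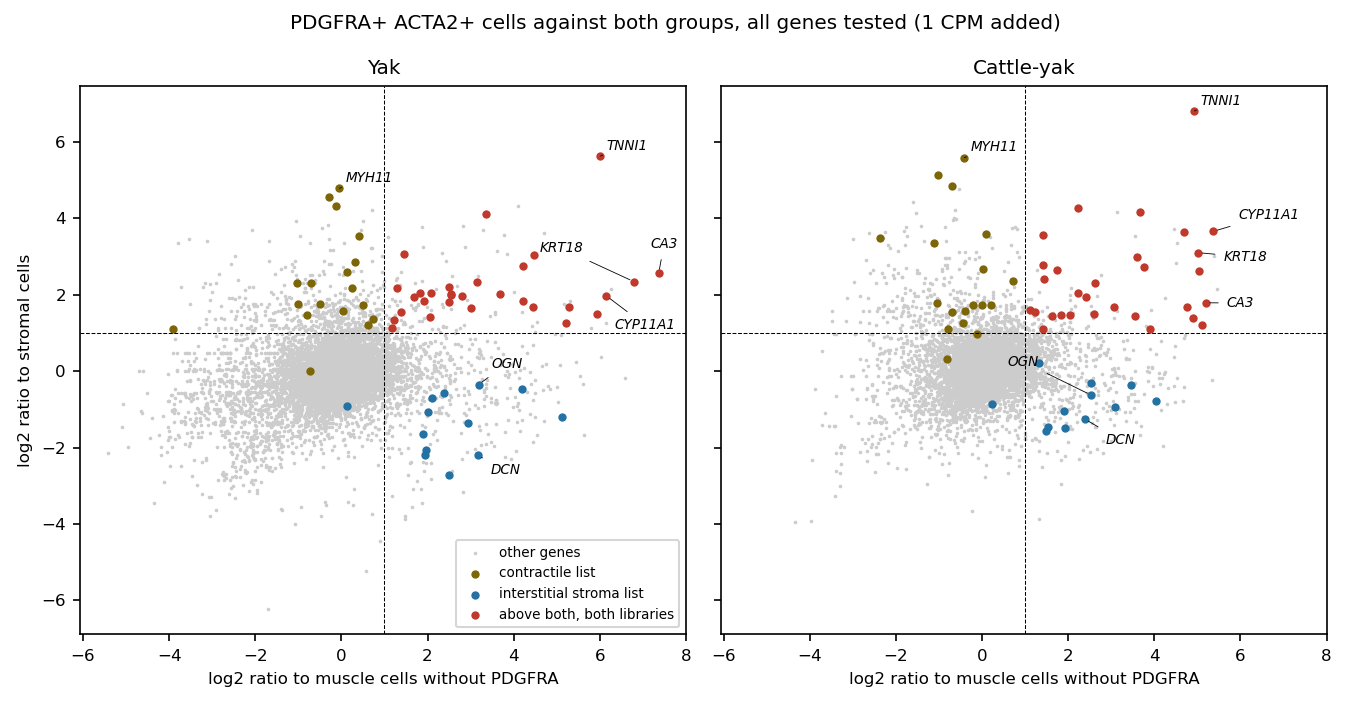
Log2 ratio of the *PDGFRA*+ *ACTA2*+ cells to muscle cells without *PDGFRA* (x axis) and to stromal cells (y axis) for every gene tested outside the rule, with 1 CPM added to each side and dashed lines at a log2 ratio of 1. Contractile genes (brown) lie high near 0 on the x axis, stroma genes (blue) right of 0 and mostly below 0 on the y axis, and the 30 genes above both groups in both libraries (red) in the upper right, with *TNNI1* farthest up in each library.

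The basement membrane genes were divided between the sources. *COL4A3* and *COL4A4*, chains of the same collagen network, were at least 2-fold above both groups in the yak, with *COL4A4* at 509, 209 and 20.8 CPM. In the cattle-yak *COL4A4* stood at 1001, 514 and 37.3 CPM, with a log2 ratio of 0.96 to stromal cells. *COL4A1* and *COL4A2*, the common chains, stood at 547 and 145 CPM in the yak *PDGFRA*+ *ACTA2*+ cells and 493 and 162 CPM in muscle cells, within 2-fold of each other. *LAMA1*, a laminin chain of tubular basement membrane, stood at 76.9, 38.7 and 1.51 CPM and at 102, 105 and 5.00 CPM, and *NID1*, which links laminin to collagen, at 144, 189 and 4.24 CPM and at 158, 279 and 6.15 CPM. Over the list, 8 of 18 genes tested in each library were above muscle cells, beside 8.48% and 9.19% of all genes, while 1 in the yak and 5 in the cattle-yak were below them, beside 15.5% and 8.21%. In the yak 4 and in the cattle-yak 2 were above stromal cells, beside 6.48% and 7.27% of all genes, and 2 and 3 were below them, beside 8.90% and 5.20%. Of the interstitial matrix list, 13 of 21 genes in the yak and 9 of 20 in the cattle-yak were above muscle cells, beside 8.48% and 9.19% of all genes, and 10 and 11 were below stromal cells, beside 8.90% and 5.20%. *POSTN*, which encodes periostin, stood at 1.59 against 29.6 CPM in stromal cells and 4.91 against 16 CPM. *ELN*, which encodes elastin, stood at 29.5, 13.6 and 11.5 CPM, over 2-fold above both groups, and in the cattle-yak at 62.8, 31.4 and 32.3 CPM, short of 2-fold.

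Of the niche ligand list, 4 of 20 genes tested in the yak and 4 of 19 in the cattle-yak were above stromal cells, beside 6.48% and 7.27% of all genes. Below stromal cells were 1 and 3, beside 8.90% and 5.20% of all genes. The summed list had log2 ratios to stromal cells of -0.09 (-0.20 to 0.02) and -0.51 (-0.63 to -0.39). In relation to muscle cells, 4 were above and 7 below in the yak and 2 above and 9 below in the cattle-yak, beside 8.48% and 15.5% of all genes in the yak and 9.19% and 8.21% in the cattle-yak. *CSF1*, the macrophage growth factor, stood at 150.1, 114 and 25.3 CPM and at 95.2, 109 and 40.4 CPM, and *CXCL12*, a chemokine of the stem cell niche, at 211, 210.4 and 415 CPM and at 155, 162 and 378 CPM. *NTF3*, a neurotrophin, was below muscle cells, at 7.57 CPM against 58.8 CPM in the yak. Of the contraction receptor list, 2 of 8 genes tested in the yak were above and 5 below muscle cells, and 1 of 7 above and 3 below in the cattle-yak, beside the same shares of all genes. In relation to stromal cells, 2 were above and 2 below in the yak, beside 6.48% and 8.90% of all genes, and 1 above and 2 below in the cattle-yak, beside 7.27% and 5.20%. *EDNRA*, the receptor by which endothelin contracts MCs, stood at 275, 397 and 34.8 CPM and at 233, 324 and 57.3 CPM, above muscle cells in both libraries. *GUCY1B1*, a subunit of the nitric oxide receptor, was below them, at 46.2 against 214 CPM and 39.2 against 145 CPM. Of the regulator list, 7 of 22 genes tested in the yak and 7 of 19 in the cattle-yak were above muscle cells, and 3 in each were below them. Of all genes, 8.48% and 9.19% were above muscle cells and 15.5% and 8.21% below. In relation to stromal cells, 1 was above and 1 below in the yak, beside 6.48% and 8.90% of all genes. In the cattle-yak 3 were above and 3 below, beside 7.27% and 5.20%. *TBX3* stood at 296, 104 and 162 CPM and at 359, 96.6 and 163 CPM. *OSR1* stood at 196, 176 and 6.82 CPM and at 181, 205 and 17.5 CPM, near stroma, whereas *LHX9*, a factor of the gonadal surface and interstitium, was low, at 64.9, 461 and 14.7 CPM and at 89.3, 454 and 24.2 CPM. The Sertoli and germ cell factors *SOX9* and *DMRT1* stood at 18.7 and 11.5 CPM in the yak and 77.5 and 17.7 CPM in the cattle-yak *PDGFRA*+ *ACTA2*+ cells.

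Markers of vascular muscle and pericytes were low beside muscle cells. *RERGL*, a gene of vascular smooth muscle, stood at 9.16, 0 and 141 CPM and at 22.6, 1.14 and 189 CPM, and *RCAN2* at 19.5, 3.41 and 191 CPM and at 44.1, 8.00 and 354 CPM. Of the vascular muscle list, 4 of 6 genes tested were below muscle cells in each library, beside 15.5% and 8.21% of all genes, and 5 of 6 were above stromal cells, beside 6.48% and 7.27%. *RGS5* stood at 185, 30.7 and 536 CPM and at 89.3, 71.4 and 404 CPM, and *MCAM* at 112, 25 and 535 CPM and at 114, 18.3 and 447 CPM. Of the pericyte list, 3 of 5 genes in the yak and 4 of 6 in the cattle-yak were below muscle cells, beside the same shares, and 3 of 5 and 1 of 6 were above stromal cells, beside 6.48% and 7.27%. Without the cells of high doublet score or with RNA of other types, *RGS5* stood at 38.6 and 11.5 CPM. Its log2 ratio to stromal cells, which were kept whole, was then 0.32 in the yak, short of 2-fold, and -2.53 in the cattle-yak.

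RNA of other cell types was measured in the same cells. The endothelial list summed to 433 CPM in the yak *PDGFRA*+ *ACTA2*+ cells, 295 in stromal and 722 CPM in muscle cells, with *PECAM1* the most abundant of its 9 genes, 2 of which were above stromal cells, beside 6.48% of all genes. Without the 25 cells of cluster 3, described further on, *PECAM1* had 33 of its 333 UMIs left. Its log2 ratio to stromal cells, which were kept whole, went from 0.88 to -2.08. In the cattle-yak it summed to 143, 318 and 603 CPM, with *EMCN* the most abundant and 6 of 9 genes below stromal cells, beside 5.20% of all genes. The T/NK list summed to 74.1 and 50.03 CPM, led by *PTPRC* with *GZMA* at 0, and the macrophage list to 17.5 and 5.89 CPM, led by *CD68* with *CD163* and *CD14* at 0. The germ list summed to 105 and 199 CPM, led by *UCHL1*, which stood at 178, 60.6 and 30.2 CPM in *PDGFRA*+ *ACTA2*+ cells, stromal and muscle cells of the cattle-yak. Pericytes of the cattle-yak had 294 CPM of *UCHL1*, and 10 cells held 56.9% of its UMIs in the *PDGFRA*+ *ACTA2*+ cells. The Sertoli list summed to 71.3 and 126 CPM, led by *WT1* and *SOX9*. The lymphatic endothelial list summed to 99.6 and 22.6 CPM, led by *CCL21*, and the Schwann list to 18.7 and 7.85 CPM, nearly all of it *S100B*, with *SOX10* at 0. Genes of the dissociation response summed to 9780.1, 8991 and 12372 CPM in the 3 groups of the yak and 11430.2, 8649 and 14006 CPM in the cattle-yak. The cell cycle list summed to 80.4 CPM in the yak *PDGFRA*+ *ACTA2*+ cells and 175 CPM in those of the cattle-yak, led by *MCM3* and *TOP2A*.

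Clustering without the genes of the rule divided the yak *PDGFRA*+ *ACTA2*+ cells into 5 and those of the cattle-yak into 4 clusters, which are described by the genes that formed them and were given no names. Their leading genes were chosen after their values were seen. In the yak, cluster 1 (226 cells, 54.9%) had *TNNI1* at 264, *CYP11A1* at 433, *KRT18* at 1695 and *MYH11* at 7532 CPM, and little *RGS5* (12.5 CPM) or *PECAM1* (14.3 CPM). Cluster 2 (126 cells) was led by *CLEC12B*, *CCN5*, *ARHGAP20*, *LGALS3* and *FLRT2*, with less *MYH11* (3866 CPM), more *DCN* (913 against 456 CPM in cluster 1) and *CYP11A1* at 285 CPM. Cluster 3 (25 cells) was led by the endothelial genes *ERG* and *CDH5*, with *PECAM1* at 639 CPM, *RGS5* at 715 CPM and a median of 14049 UMIs against 4642 in cluster 1. Cluster 4 (14 cells) was led by *CCN3* and *NDRG4*, with *RGS5* at 475 CPM. Cluster 5 (21 cells) was led by an unnamed feature and the lymphocyte chemokine *CCL5*, with *PTPRC* at 212 CPM.

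In the cattle-yak, clusters 1 (54 cells) and 3 (48 cells) had *TNNI1* at 441 and 381 CPM and *CYP11A1* at 335 and 311 CPM. *KRT18* stood there at 2260 and 2265 CPM and *MYH11* at 4577 and 4756 CPM. Likeness between clusters of the 2 libraries was not tested. Cluster 4 (26 cells) had *IGF1*, *OSR2* and *FOS* among its leading genes, with *DCN* at 1225 and *MYH11* at 1896 CPM. Cluster 2 (39 cells) had *CCN3* and *RGS5* as its leading genes, with *CYP11A1* at 65.6 CPM, *KRT18* at 467 CPM and a median of 8672 UMIs, against 4676 in cluster 1.

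**Figure D5:**
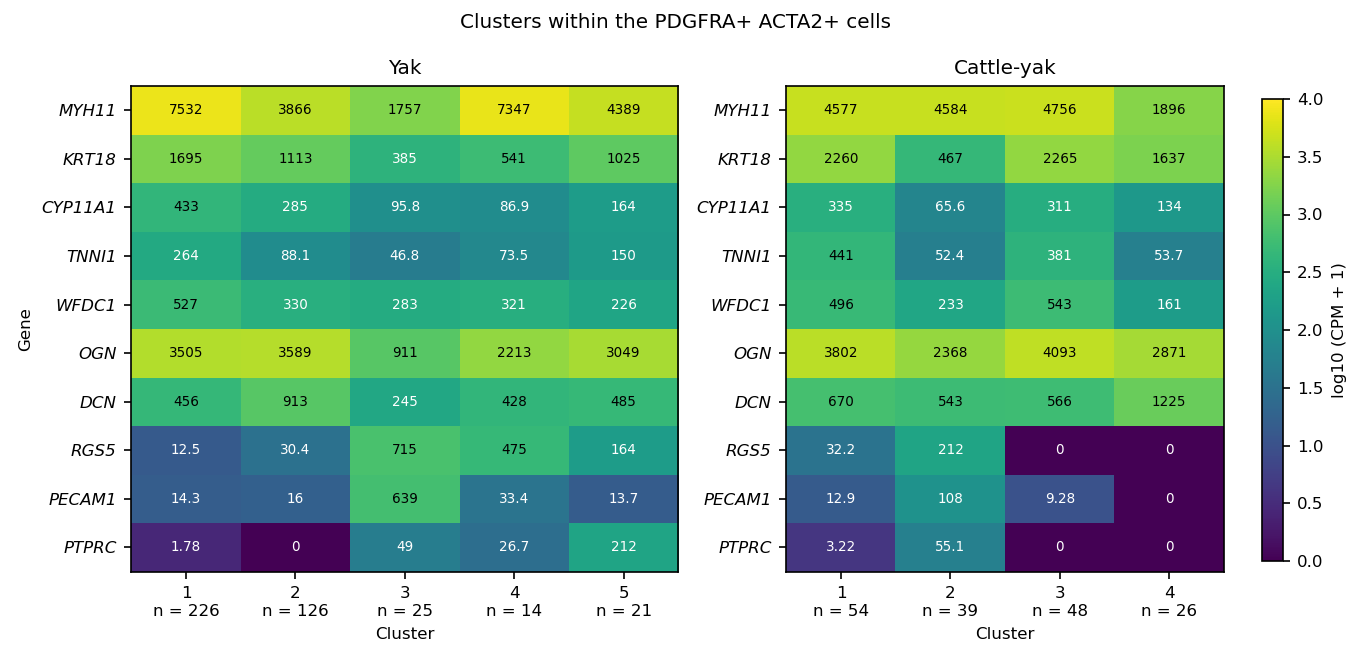
Levels of 10 genes (CPM, printed in each cell and coloured as log10 of CPM + 1) in the clusters of the *PDGFRA*+ *ACTA2*+ cells, with the number of cells under each cluster. In the yak, clusters 1 and 2 hold 352 of 412 cells and have *PECAM1*, *RGS5* and *PTPRC* at no more than 30.4 CPM, whereas clusters 3 to 5 and cluster 2 of the cattle-yak have more *RGS5* and *PTPRC* and less *CYP11A1* and *KRT18* than cluster 1 of their library.

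The clusters also differed in doublet score, a measure of likeness to sums of 2 random cells of the library. Of the *PDGFRA*+ *ACTA2*+ cells, 43 of 412 in the yak (10.4%, 7.66 to 13.8%) and 43 of 167 in the cattle-yak (25.7%, 19.3 to 33.1%) were among the 10% of cells of their library with the highest scores. In the cattle-yak 35 of the 39 cells of cluster 2 were among them, against 4 of 54, 1 of 48 and 3 of 26 in clusters 1, 3 and 4. In the yak these were 12 of 25, 11 of 14 and 12 of 21 cells of clusters 3, 4 and 5, and 6 of 226 and 2 of 126 of clusters 1 and 2. At its own threshold the doublet caller marked 25 of the 167 *PDGFRA*+ *ACTA2*+ cells of the cattle-yak (15.0%), against 251 of all 8930 cells there (2.81%), and none of the 11991 yak cells. At least 3 UMIs over the endothelial, T/NK, macrophage and germ lists were found in 64 yak (15.5%) and 40 cattle-yak *PDGFRA*+ *ACTA2*+ cells (24.0%). Among stromal and muscle cells the shares were 20.3% and 26.4% in the yak and 6.99% and 12.5% in the cattle-yak. By cluster, such cells were 16 of 54, 12 of 39, 7 of 48 and 5 of 26 cells of clusters 1 to 4 of the cattle-yak. In the yak these were 14 of 226, 6 of 126, 23 of 25, 2 of 14 and 19 of 21 cells of clusters 1 to 5. Without both kinds of cells, 331 yak and 95 cattle-yak cells were left. In these, *TNNI1* stood at 201 and 309 CPM, *KRT18* at 1519 and 1842 CPM, *CYP11A1* at 393 and 282 CPM, *CA3* at 3297 and 817 CPM, *COL4A3* at 763 and 833 CPM, and *MYH11* at 6490.2 and 3913 CPM in the yak and cattle-yak. *RGS5* stood at 38.6 and 11.5 CPM and *PTPRC* had no UMI in either. The 5 genes *TNNI1*, *KRT18*, *CYP11A1*, *CA3* and *COL4A3* thus stood higher in what was left than in all *PDGFRA*+ *ACTA2*+ cells of either library, and *MYH11* did so in the yak only.

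The *PDGFRA*+ *ACTA2*+ cells of the yak and of the cattle-yak were set side by side, which compares 2 libraries and not the animal types. *CA3* stood at 2539.9 CPM in the yak and 598 in the cattle-yak, and was also higher in the stromal cells of the yak, at 429 against 172 CPM. *PTCH1* stood at 109.9 and 205 CPM, *KRT18* at 1197 and 1522 CPM, *SOX9* at 18.7 and 77.5 CPM and *TGM2* at 177 and 66.7 CPM. *INHA* stood at 5.18 and 16.7 CPM, on 13 and 17 UMIs, and *PECAM1* at 133 and 46.1 CPM. Without cluster 3 of the yak, *PECAM1* stood at 16.2 CPM there. Without the cells of high doublet score or with RNA of other types, it stood at 11.8 and 4.62 CPM in the yak and cattle-yak. The features with the largest ratios had no symbol. ENSBGRG00000007655 stood at 5.18 CPM in the yak and 169.7 CPM in the cattle-yak, and ENSBGRG00000005860 at 3.19 and 103 CPM. Both were also higher in cattle-yak stromal cells, at 242 against 26.2 CPM and 72.6 against 5.69 CPM. At the other end were ENSBGRG00000008342 and ENSBGRG00000020609, the features with most of their UMIs in 10 yak cells, which had 0 and 1 UMI in the cattle-yak *PDGFRA*+ *ACTA2*+ cells.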

How the data were processed

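The authors deposited, for 1 yak and 1 cattle-yak testis library, whole-number UMI counts per gene and cell from the 10x Genomics droplet system, filtered to cells and not normalized. Cell Ranger 2.1.1 is listed in the submitters' processing notes, while the deposited file headers give 5.0.0 and the study's methods another version, and the version behind the counts was not settled. Counting error alone was estimated, because each animal type had 1 library. All counts came from these libraries.

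The members and gene lists were chosen with earlier results of these data known. The contractile list leaves out the rule genes. Mitochondrial share was taken over 37 features. Counts were summed over the cells of a group and scaled to CPM, and genes with at least 50 counts over the 3 groups were tested for a 2-fold difference with 1 CPM added. Summed levels carry exact Poisson and shares exact binomial (Clopper-Pearson) 95% intervals, and the floor of a count of 0 was 3 counts. To give the shares of cells that held a gene, every cell was first thinned to 2000 UMIs, with shallower cells left out. Named genes were those of the rule and the lists, *CYP11A1*, *PTCH1* and *WFDC1*, the 12 genes of each library with the largest smaller log2 ratio to both groups at 100 or more counts, and the 3 most different in each direction between libraries. Clusters (Leiden, resolution 0.5, 15 neighbours, 20 components) left out the rule genes. The study's methods describe Cell Ranger as having removed droplets with several cells, and no further doublets were removed here. Scrublet at its own threshold called 0 of 11991 yak cells and 251 of 8930 cattle-yak cells (2.81%). Its calls were not used, and the 10% highest scores of each library served as a measure. Some genes of the lists are counted in them but not reported here by name. Scripts were tested on simulated data. The work used Python 3.11.15, numpy 2.4.6, scipy 1.17.1, pandas 2.3.3, scanpy 1.11.5, scikit-learn 1.9.0, igraph 0.11.9 and matplotlib 3.10.9. Alternatives changed the rule's limits, the cells left out, the scaling, the filter, the fold, the thinning depth and the cluster resolution.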

Additional observations from a re-analysis of the deposited data

Results flagged for a closer look

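Genes of endothelium stood on opposite sides of the stromal level in the 2 libraries, and these differences were not tested, since each library is 1 sample. *CDH5*, the cadherin of endothelial junctions, had a log2 ratio of the *PDGFRA*+ *ACTA2*+ cells to stromal cells of 1.46 in the yak and -1.34 in the cattle-yak. *KDR*, a receptor for vascular growth factor, had 1.19 and -1.94. The lymphatic endothelial genes *CCL21*, a chemokine, and *MMRN1* had 1.09 and 1.504 in the yak and -2.71 and -2.95 in the cattle-yak. In the yak, *CDH5* was among the leading genes of cluster 3, a set of 25 cells, 12 of which were among the highest doublet scores. Without these 25 cells the log2 ratio in the yak was -3.04 for *CDH5*, with 3 of 138 UMIs left, -2.52 for *KDR*, with 6 of 127 left, -0.40 for *CCL21* and -0.064 for *MMRN1*, with 33 and 31 of 118 left each. Most UMIs of these genes in the yak *PDGFRA*+ *ACTA2*+ cells thus lay in cluster 3. The stromal cells were kept whole for these ratios, and 40 of the 197 in the yak held RNA of other types.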

How the results depend on the processing

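Neither the log2 ratio of *CYP11A1* to stromal cells nor that of the summed contractile list to muscle cells changed sign under any alternative run. Single genes did so in both libraries when *PDGFRA*+ *ACTA2*+ cells were left out, alternatives added after seeing the data with both comparison groups kept whole. In the cattle-yak, without cells of high doublet score or with RNA of other types, the log2 ratio to stromal cells turned to -2.53 for *RGS5*. It also turned for *PTPRC*, to -4.47, a gene of the lists that chose the cells left out. In the yak, without such cells, the log2 ratio to muscle cells turned to 0.23 for *MYH11* and 0.13 for *TPM2*, and that to stromal cells to -2.50 for *PECAM1*, -3.18 for *CDH5*, -2.98 for *KDR*, -1.64 for *CCL21* and -0.55 for *MMRN1*, of which the first 3 are on the list that chose the cells left out. Without cluster 3 these values were 0.16, 0.076, -2.08, -3.04, -2.52, -0.40 and -0.064. The log2 ratio of *CYP11A1* to stromal cells ran from 1.75 to 2.34 in the yak and from 3.05 to 3.98 in the cattle-yak, and was 2.37 and 4.10 where the cells of high doublet score or with RNA of other types were left out of the *PDGFRA*+ *ACTA2*+ cells alone, with the lowest cattle-yak value, 3.05, for stromal cells with up to 5 UMIs of *ACTA2*, an alternative added after seeing the data, as were thinned ratios and the removal of shared barcodes. Values given in pairs are for yak and cattle-yak. The share of cells meeting the rule was 2.31% and 1.01% with stricter and 4.98% and 3.83% with looser thresholds, and 8.69% and 2.68% without cells holding RNA of other types, which also shrinks the denominator. In the cattle-yak it was 3.24% at a mitochondrial limit of 20% and 1.80% without the highest doublet scores. The share with a UMI of *CYP11A1* was 25% and 15.0% at 1000 UMIs, 59.1% and 41.9% at 4000, 66.0% and 47.3% without thinning, and in the yak 46.8% without cells holding RNA of other types. The log2 ratio of the contractile list to muscle cells was -0.091 and -0.60 at the 20% limit, -0.48 and -0.79 with upper limits on genes and UMIs, -0.090 and -0.59 with stricter and -0.46 and -0.81 with looser thresholds, -0.59 and -0.86 without RNA of other types, -0.46 and -0.86 with equal weight of cells, -0.23 and -0.79 with median-of-ratios factors and -0.46 and -0.85 after thinning. It was -0.32 in the yak without mitochondrial features and -0.90 in the cattle-yak without the highest doublet scores. The percentage of genes above both groups was 1.90% and 2.98% at 10 counts or more and 0.298% and 0.255% at 4-fold. It was 1.99% without RNA of other types and 1.91% with equal weight in the yak, and 0.836% with looser thresholds and 0.748% at 200 counts or more in the cattle-yak. At a resolution of 1 the yak cells formed 9 clusters. Of the other values of these results, 58 from alternatives listed at the start and 17 from those added later moved within their counting interval or 1.5 times. No paired analysis was possible because each animal type had 1 library. The depth of a cell limits absence: no thinned *PDGFRA*+ *ACTA2*+ cell had a UMI of *STAR*, for which the exact binomial upper limits on the share of cells with 1 are 0.891% in the yak and 2.20% in the cattle-yak, and 3 counts of the total would be 0.728% and 1.81%.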
